A study of Mus musculus with 6 samples.

Results

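The promoters described here belong to the nuclear genes for the subunits of the respiratory chain and ATP synthase, measured by ATACseq in GL261 cells at 3 oxygen levels. Members were chosen by name from the GENCODE M21 annotation of mm10: protein-coding genes whose symbol begins with *Ndufa*, *Ndufb*, *Ndufc*, *Ndufs*, *Ndufv*, *Uqcr*, *Cox4i*, *Cox5* to *Cox8* or *Atp5*, together with *Sdha* to *Sdhd* and *Cyc1*, and without the *Ndufaf* assembly factors. This gave 87 gene identifiers with 86 symbols, of 21938 protein-coding nuclear genes, and a peak was assigned to a gene when it lay within 2000 bp of one of its transcription start sites. No measured value entered the choice. *Ndufa4* was kept with complex I, after its symbol, although its product is now counted as part of complex IV, and *Atp5s*, which is named after ATP synthase, encodes a factor that is not part of the enzyme core.

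GL261 is a mouse glioma line, and the cells used here carried the pEGFP-N1 plasmid, a vector for green fluorescent protein, in every group. The groups were normoxia (21% O2), moderate hypoxia (1% O2) and severe hypoxia (<0.1% O2), each for 16 h, with 2 libraries per group and 6 in all, and cells were fixed with formaldehyde before they were lysed. The labels do not say whether the 2 libraries of a group came from separate cultures. One cell line stands behind all of them, and in a bulk assay fewer cells with an open promoter and a less open promoter in each cell cannot be told apart. Of 8 glial and glioma markers, 7 had a promoter peak in all 6 libraries and *Fabp7* had one in 3, while of 6 markers of other cells *Pdgfrb* had one in 6 libraries and *Pecam1* in 5, and *Ptprc*, *Aif1*, *Cdh5* and *Rbfox3* had none.

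The respiratory chain sits in the inner mitochondrial membrane, where complexes I to IV pass electrons to oxygen and pump protons, and complex V uses the proton gradient to make ATP. Most of its subunits are encoded in the nucleus, and their promoters are known for GC-rich sequence and for sites of NRF1, of the ETS factor GABP and of YY1. Cells short of oxygen are known to lower respiration, in part through HIF, which exchanges COX4 isoforms and raises *Ndufa4l2*.

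The lists held 33006 to 43554 peaks per library, and read totals are not in them. The mean genome coverage recovered was 2.16 and 2.36 fragments in normoxia, 2.93 and 2.99 in moderate hypoxia and 3.35 and 3.18 in severe hypoxia, so all hypoxic libraries were deeper than both normoxic ones. Over the same libraries the median background at peaks, in multiples of the genome coverage, went from 2.39 and 2.36 over 2.09 and 1.96 to 1.84 and 1.88. The part of depth and of background in the changes below was not tested. Accessibility was therefore read as a percentile rank among the 28432 consensus peaks found in all 6 libraries, with 100 for the highest. Ranks of 2 kinds were used. The pileup rank orders peaks by the fragment pileup at the summit, and the fold rank orders them by the pileup over the local background, the authors' fold. To be called lower or higher, a promoter had to have both libraries of a hypoxia level outside the normoxic pair, on the same side, and a shift of its mean rank of 10 percentile points or more. A rank is relative, so a lower rank means a loss of height against the other peaks of the same library. No p-value is given for single promoters, since the smallest p that exact permutation of 2 and 2 libraries allows is 0.33. Counts over all members, by measure and oxygen level, are set beside the share of all 11638 protein-coding genes with a ranked promoter peak that met the same rule.

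The motifs for which these promoters are known were common in their sequence. RefSeq promoter windows (GRCm38.p6, 250 bases before to 50 after the start) were matched for 70 of the 87 identifiers, or 69 distinct genes. The NRF1 core CGCATGCG, a palindrome, was found in 9 windows (13.0%) against 2.77% of 17492 protein-coding genes in the table. The ETS core CCGGAAG, which GABP binds, was found in 16 (23.2%) against 12.9%, and the YY1 core AAGATGGC in 10 (14.5%) against 3.57%. At least 1 of the 3 was present in 29 members (42.0%) against 17.8% of all genes. The HIF core ACGTG was in 18 (26.1%) against 23.2%. Both strands were searched, genes with more than 1 window counted once, and a match is a description and not a site. Members for which no window was matched include *Atp5a1*, *Atp5mpl*, *Cox4i1*, *Cox4i2*, *Cox6a2*, *Cox6c*, *Cox8c*, *Cyc1*, *Ndufa2*, *Ndufa4l2*, *Ndufb9*, *Ndufs1*, *Sdhc*, *Uqcrb*, *Uqcrc2* and *Uqcrq*.

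Promoters at both ends of the response are shown, with motif matches in capitals. *Uqcrh* and *Sdhd* fell among the most in pileup rank at <0.1% O2, *Ndufs7* and *Ndufs8* rose the most, *Cox6a1* rose and holds both an NRF1 and an ETS match, and *Ndufa4* belongs to an isoform pair described below. *Sdhd* and *Cox6a1* were added after their values were seen. The windows are chr4:116075021-116075320 (minus strand) for *Uqcrh*, chr9:50603800-50604099 (minus) for *Sdhd*, chr10:80249199-80249498 (plus) for *Ndufs7*, chr19:3912725-3913024 (minus) for *Ndufs8*, chr5:115348909-115349208 (minus) for *Cox6a1* and chr6:11907401-11907700 (minus) for *Ndufa4*, each 5′ to 3′ along its gene.
Uqcrh: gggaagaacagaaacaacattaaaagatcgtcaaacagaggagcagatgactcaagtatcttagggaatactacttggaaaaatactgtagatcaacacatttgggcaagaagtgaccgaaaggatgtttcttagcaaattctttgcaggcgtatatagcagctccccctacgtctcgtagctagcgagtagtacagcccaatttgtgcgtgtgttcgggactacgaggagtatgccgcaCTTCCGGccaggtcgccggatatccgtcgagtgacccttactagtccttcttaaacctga
Sdhd: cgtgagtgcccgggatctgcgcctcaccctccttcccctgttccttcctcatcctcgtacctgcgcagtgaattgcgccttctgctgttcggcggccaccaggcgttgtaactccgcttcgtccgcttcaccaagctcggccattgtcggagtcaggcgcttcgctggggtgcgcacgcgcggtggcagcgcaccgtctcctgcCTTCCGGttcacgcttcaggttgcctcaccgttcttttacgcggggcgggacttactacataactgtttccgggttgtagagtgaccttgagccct
Ndufs7: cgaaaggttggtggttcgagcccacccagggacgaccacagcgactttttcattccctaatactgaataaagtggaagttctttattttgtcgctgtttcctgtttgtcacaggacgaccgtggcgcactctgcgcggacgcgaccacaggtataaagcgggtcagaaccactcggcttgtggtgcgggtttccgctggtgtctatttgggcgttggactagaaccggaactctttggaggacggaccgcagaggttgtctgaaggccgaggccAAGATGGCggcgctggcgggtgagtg
Ndufs8: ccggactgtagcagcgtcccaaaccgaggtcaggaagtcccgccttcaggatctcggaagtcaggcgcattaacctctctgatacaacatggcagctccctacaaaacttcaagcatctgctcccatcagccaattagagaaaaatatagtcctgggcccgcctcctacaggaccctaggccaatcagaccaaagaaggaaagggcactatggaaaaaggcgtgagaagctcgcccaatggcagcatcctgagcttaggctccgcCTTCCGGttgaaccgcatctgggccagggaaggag
Cox6a1: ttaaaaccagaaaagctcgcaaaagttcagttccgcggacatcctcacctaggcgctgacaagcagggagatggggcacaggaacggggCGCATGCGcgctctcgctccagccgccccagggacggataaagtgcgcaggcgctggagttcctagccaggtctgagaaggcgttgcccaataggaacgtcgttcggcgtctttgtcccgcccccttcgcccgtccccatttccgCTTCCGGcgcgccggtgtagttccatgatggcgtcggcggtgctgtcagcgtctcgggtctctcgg
Ndufa4: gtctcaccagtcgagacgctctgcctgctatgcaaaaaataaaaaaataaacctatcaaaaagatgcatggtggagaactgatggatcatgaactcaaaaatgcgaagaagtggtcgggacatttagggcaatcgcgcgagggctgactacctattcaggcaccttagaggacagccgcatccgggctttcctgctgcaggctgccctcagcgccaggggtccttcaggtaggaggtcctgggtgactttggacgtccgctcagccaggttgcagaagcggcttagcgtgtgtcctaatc

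The capitals in *Uqcrh*, *Sdhd* and *Ndufs8* are each 1 ETS match read on the opposite strand. They begin 10 bases before the start in *Uqcrh*, 46 before in *Sdhd* and 15 after in *Ndufs8*. In *Ndufs7* the capitals are a YY1 match that begins 24 bases after the start. *Cox6a1* holds an NRF1 match 161 bases before the start and an ETS match 16 bases before it. *Ndufa4* holds none of the 4 motifs. Promoters that fell and promoters that rose thus both held the ETS core.

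The first question was whether these promoters carried a peak at each oxygen level. A peak was present in both libraries for 81 of 87 identifiers at 21% O2, 81 at 1% O2 and 82 at <0.1% O2, against 54.2%, 55.8% and 54.4% of all protein-coding genes. All 38 members of complex I, all 4 of complex II and all 9 of complex III had a peak in every library, complex IV had one in both libraries for 13, 13 and 14 of 18, and complex V for 17 of 18 at each level. No consensus peak was found for *Cox4i2*, *Cox6a2*, *Cox8b*, *Cox8c* and the second *Atp5o* identifier. The first 4 are isoforms known from lung, muscle or testis. *Cox7b*, on the X chromosome, had a small peak in 4 of 6 libraries, with pileups of 29 in the first library at 21% O2, 34 in the first at 1% O2 and 32 and 29 at <0.1% O2. Presence thus did not separate the oxygen levels, and all further values are for the 81 members with a ranked peak. No member was read at the peak of another member, but 30 of the 81 peaks were shared with another protein-coding gene. The peak covered a start site of its member in 78 of the 81. It lay 179 bp away for *Atp5f1*, 394 bp for *Ndufa13* and 1253 bp for *Ndufa4l2*, the member nearest to the limit of 2000 bp.

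By pileup, members ranked lower in severe hypoxia, and more often than promoters in general. Their median pileup rank was 67.6 and 68.3 in the libraries at 21% O2, 64.5 and 66.2 at 1% O2, then 56.6 and 58.6 at <0.1% O2, so the 3 levels did not overlap. Over all genes the medians were 70.0 and 70.3, then 69.8 and 69.2, then 62.7 and 64.0. The median change of members at <0.1% O2 was -9.87 percentile points, against -4.80 for all genes. Of the 81 members, 40 (49.4%) were lower against 34.2% of all genes, and 6 (7.41%) were higher against 7.37%. At 1% O2, 17 (21.0%) were lower against 15.9%, 6 (7.41%) were higher against 10.4%, and the median change was -2.20 against -0.35. From 1% to <0.1% O2 the median change was -5.69 against -4.16. Ranks that fell at each step, with no overlap between the 3 levels, were found for 24 members (29.6%) against 22.5%. When ranks were taken within all peaks of a library, and the lists were longer in hypoxia, 15 members (18.5%) were lower at <0.1% O2 against 17.4% of all genes, so the gap between members and other promoters was not seen in that count. The median change was then -2.88 against -0.57. At 1% O2 the median change of members turned to 2.08, with 3 lower (against 3.22% of all genes) and 11 higher (against 18.6%). With 20 points required in place of 10, 13 members (16.0%) were lower against 14.3%. No test was run of the members' share against the background.

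**Figure D1:**
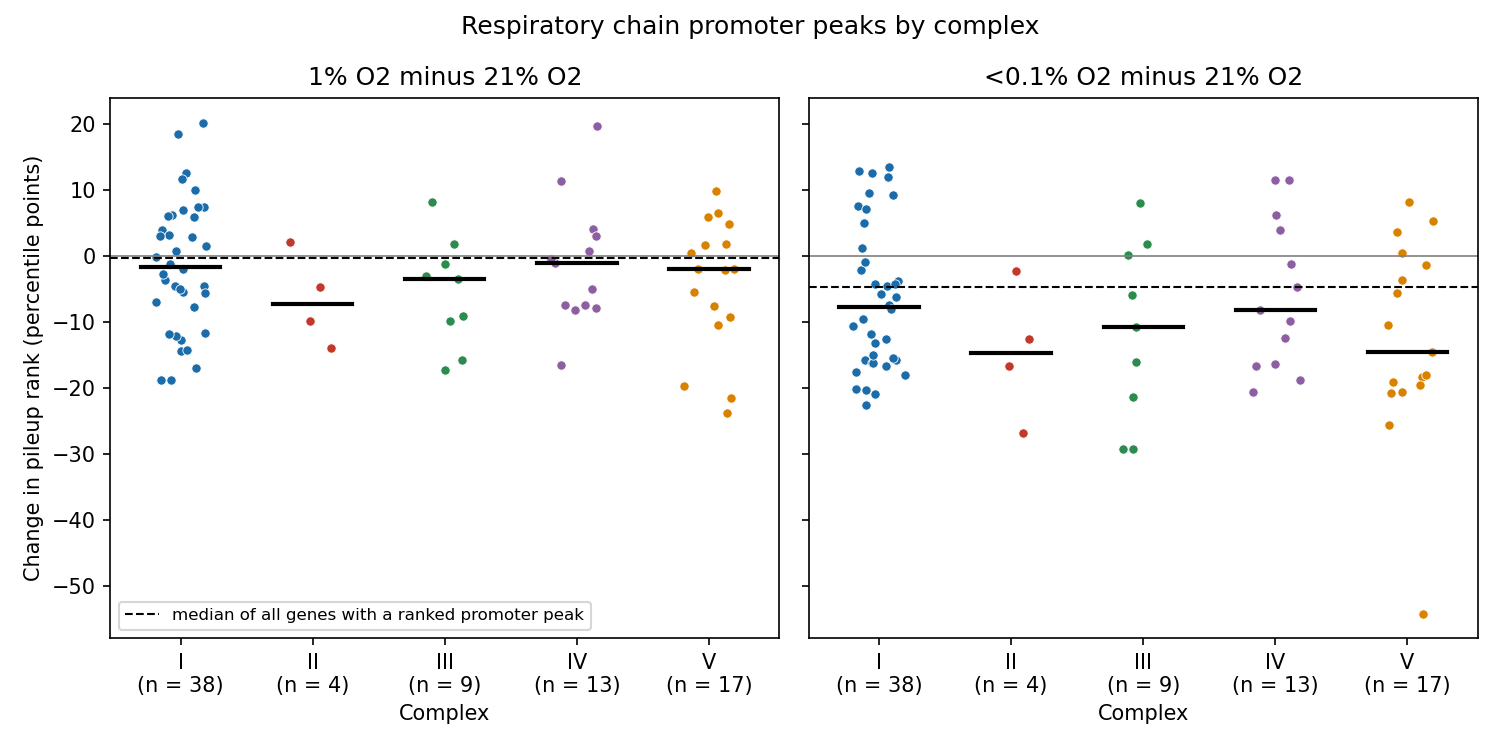
Change in pileup rank (percentile points) of the 81 members with a ranked promoter peak at 1% O2 (left) and <0.1% O2 (right), 1 point per gene by complex. Thick lines are medians of each complex and the dashed line is the median of all genes. At <0.1% O2 every complex had its median below that line, from -7.78 in complex I to -14.7 in complex II.

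By fold, the members did not stand apart at <0.1% O2. At <0.1% O2, 23 of 81 (28.4%) were lower in fold rank against 28.2% of all genes, and 6 (7.41%) were higher against 10.8%, with a median change of -2.21 against -3.12. Within the whole peak list 11 were lower (against 18.2%) and 10 higher (against 14.8%), and the median change turned to 0.885. Without shared promoters it was 0.223. At 1% O2, 13 (16.0%) were lower against 16.2% and 9 (11.1%) higher against 10.9%, with a median change of 0.56 against -1.06. The counts of higher members rose when single libraries were left out. Fewer libraries then have to be in order, and the share of all genes rose too. At <0.1% O2 the count was 12 (14.8%) against 12.7% without the second library at 21% O2 and 10 (12.3%) against 14.7% without the first at <0.1% O2. At 1% O2 it was 20 (24.7%) against 13.8% without the first library at 1% O2 and 15 (18.5%) against 14.8% without the second at 21% O2. The step from 21% to 1% to <0.1% O2 was downward without overlap for 8 members (9.88%) against 8.63%. Both measures called 20 of 81 members lower at <0.1% O2, against 2448 of all 11638 genes. The pileup alone called another 20 members lower and the fold alone 3, and none was lower by one and higher by the other. The share of pileup-lower promoters that were also lower by fold was 50.0% for members and 61.4% for all genes. When the -log10 q-value of the authors' peak caller was ranked in place of the fold, 39 members (48.1%) were lower at <0.1% O2 against 34.4%.

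**Figure D2:**
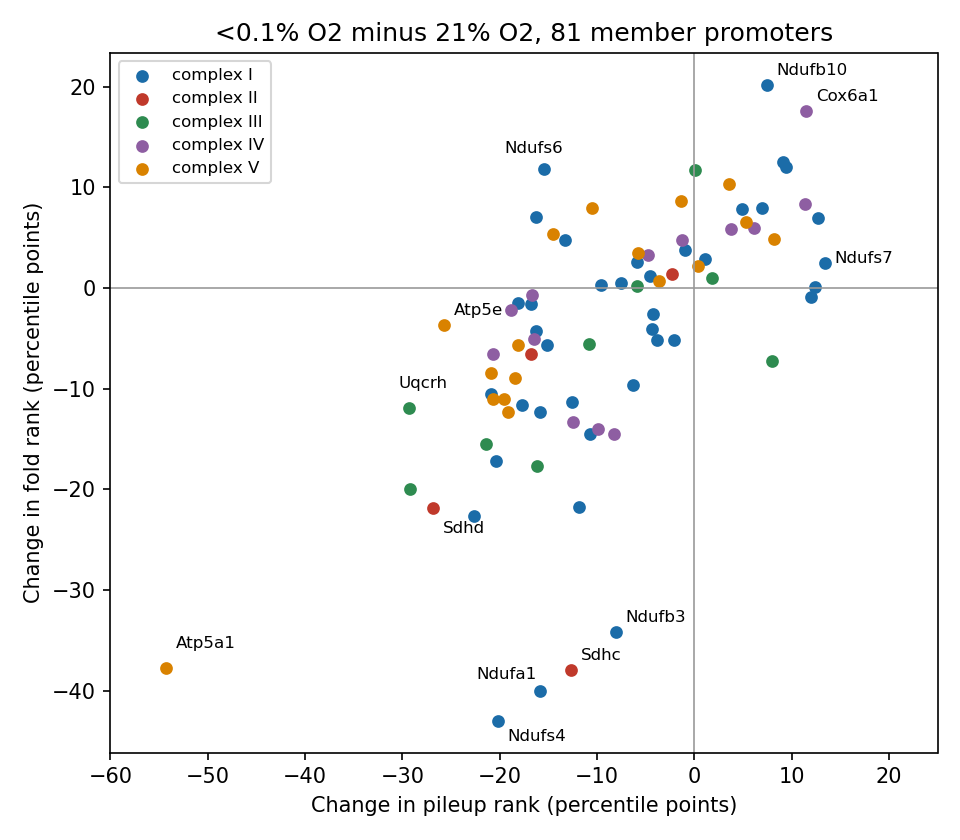
Change in pileup rank (x axis) against change in fold rank (y axis), both in percentile points, at <0.1% O2 for the 81 members, coloured by complex. Points in the lower left fell by both measures, with Atp5a1 farthest out at -54.3 by pileup, and Ndufs6 at -15.5 by pileup and 11.9 by fold is among those that moved apart.

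Complex I, NADH dehydrogenase, takes electrons from NADH and is the largest complex, and it held promoters at both ends. Of its 38 members, 17 were lower (44.7% against 34.2% of all genes) and 4 higher (10.5% against 7.37%) in pileup rank at <0.1% O2, and 9 were lower (23.7% against 15.9%) and 4 higher (10.5% against 10.4%) at 1% O2. The *Ndufa* genes, mostly accessory subunits, had 8 of 15 lower (53.3%) and none higher at <0.1% O2, and *Ndufb* and *Ndufc* had 5 of 12 lower (41.7%) and none higher. The *Ndufs* and *Ndufv* genes, which include the core subunits that bind the flavin and most of the iron-sulphur clusters, had 4 of 11 lower (36.4%) and 4 higher (also 36.4%), with a median change of -0.95. The last 2 shares of lower promoters were near the 34.2% of all genes, and the difference between the subunit classes was not tested.

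The 4 promoters of complex I that were higher all belonged to this last class. *Ndufs7*, which carries the last iron-sulphur cluster before ubiquinone, had pileup ranks of 72.7 and 74.1 in normoxia, 82.7 and 83.8 at 1% O2 and 84.1 and 89.4 at <0.1% O2, a rise of 13.4. *Ndufs8*, a ferredoxin-like subunit beside it, had 65.8 and 64.5, then 78.1 and 77.1, then 77.7 and 78.2, a rise of 12.8. Both had all hypoxic libraries above both normoxic ones. *Ndufv1*, the flavin-binding subunit that accepts electrons from NADH, had 45.1 and 48.3, then 65.9 and 67.9, then 62.3 and 56.0, a rise of 12.4 at <0.1% O2 after one of 20.2 at 1% O2. *Ndufv3*, a small subunit next to it, had 77.7 and 77.4, then 88.8 and 89.4, then 88.7 and 90.3, a rise of 12.0. *Ndufv1* did not reach 10 points without the first library at <0.1% O2 (9.29). By fold rank none of the 4 was called at <0.1% O2, with changes of 2.51, 6.96, 0.07 and -0.85 in the same order, so these rises rest on the pileup. On another scale, the log2 pileup divided by a size factor per library, no member was higher by 0.6 or more at <0.1% O2 without overlap, against 2.94% of all genes, and 26 members (32.1%) were lower by that much against 21.6%.

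**Figure D3:**
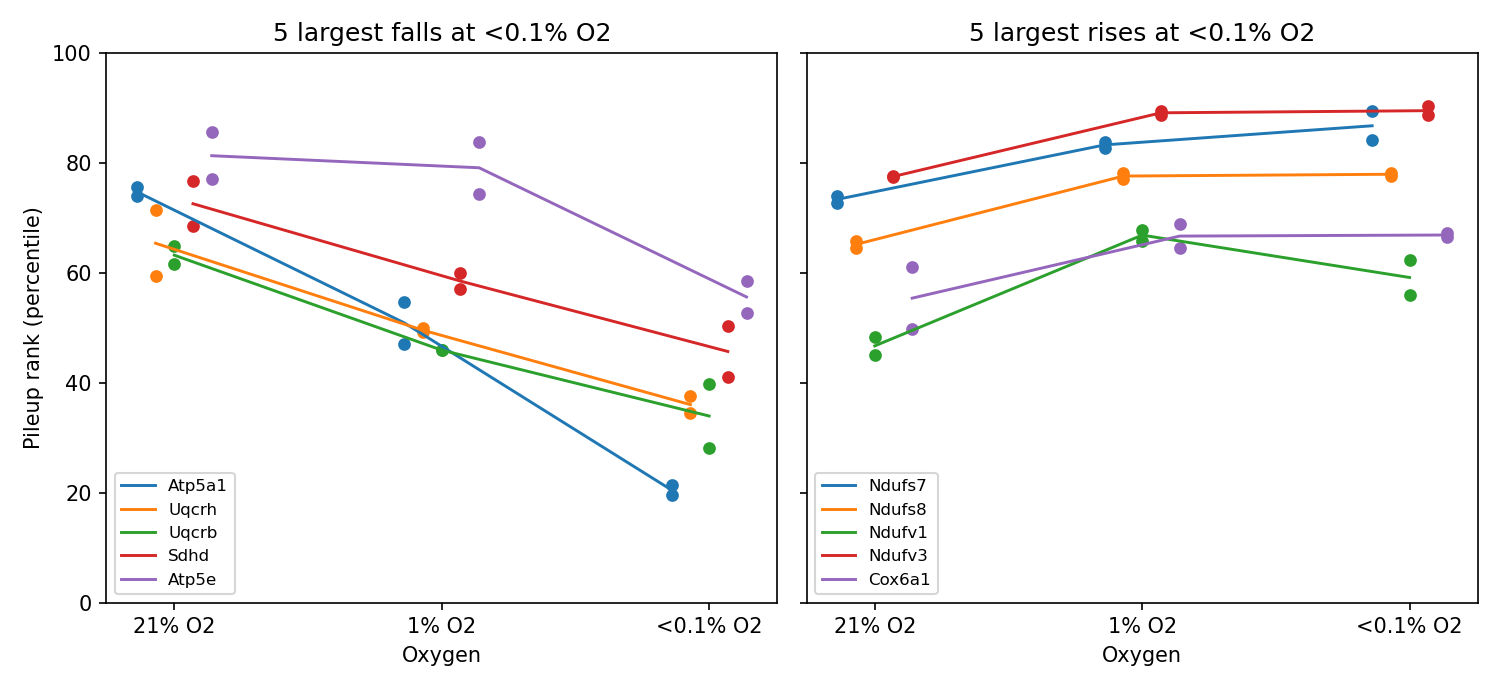
Pileup rank (percentile, 100 highest) at 21%, 1% and <0.1% O2 for the 5 members with the largest fall (left) and the 5 with the largest rise (right) at <0.1% O2. Points are single libraries, 2 per level, and lines join the means. Atp5a1 went from 73.9 and 75.6 to 21.4 and 19.6, and Atp5e stayed near its normoxic ranks at 1% O2.

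Among the largest falls by fold at <0.1% O2 were 3 promoters of complex I. *Ndufs4*, an accessory subunit whose loss is known to cause Leigh syndrome, had fold ranks of 65.0 and 66.3 in normoxia, 33.0 and 39.2 at 1% O2 and 23.4 and 21.9 at <0.1% O2, a change of -43.0. Its pileup ranks of 23.3 and 28.8, then 12.0 and 11.1, then 5.6 and 6.1 fell in the same steps, a change of -20.2. *Ndufa1*, an X-linked subunit needed for assembly, had fold ranks of 32.4 and 64.0, then 32.4 and 9.4, then 6.0 and 10.3, a change of -40.0 with replicates that differed widely in normoxia. Its pileup ranks were 10.0 and 24.6, then 7.4 and 1.6, then 0.7 and 2.1, the lowest mean of complex I, and the call was lost without the second library at 21% O2 (-8.56). *Ndufb3*, a membrane arm subunit, had fold ranks of 84.2 and 54.6, then 61.8 and 61.9, then 37.9 and 32.6, a change of -34.2, while its pileup ranks overlapped between normoxia and <0.1% O2 with a change of -8.06. *Ndufs6* went the other way in the 2 measures. Its pileup ranks were 55.7 and 56.9, then 41.9 and 42.1, then 30.2 and 51.4, a fall of 15.5 points that was 4.88 without the first library at <0.1% O2, and its fold ranks were 27.9 and 18.1, then 25.7 and 22.0, then 23.2 and 46.6, with overlap and a change of 11.9.

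At <0.1% O2, *Ndufb10*, *Ndufa10* and *Ndufa4l2* were the members of complex I called higher by fold. *Ndufb10*, a membrane arm subunit, had fold ranks of 0.81 and 1.27 in normoxia, 17.5 and 24.6 at 1% O2 and 26.3 and 16.2 at <0.1% O2, a rise of 20.2 at the lowest level, and pileups of 46 and 69, then 126 and 121, then 105 and 72. *Ndufa10* had fold ranks of 70.5 and 62.4, then 64.0 and 80.7, then 79.9 and 78.1, a rise of 12.5 that was 8.52 without the second library at 21% O2. *Ndufa11* had the highest mean pileup rank of the complex, with 88.6 and 87.6, then 91.8 and 92.3, then 92.5 and 93.5.

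*Ndufa4* and *Ndufa4l2* moved apart. *Ndufa4*, the common isoform, had pileup ranks of 83.2 and 85.1 in normoxia, 72.4 and 71.6 at 1% O2 and 68.8 and 66.9 at <0.1% O2, a fall at each step without overlap and a change of -16.3 in all, or -9.30 within the whole peak list. Its fold ranks of 95.9 and 93.4, then 75.0 and 80.6, then 88.1 and 92.7 were called lower at 1% O2 and not at <0.1% O2. *Ndufa4l2*, the isoform known to be induced by HIF, had its only peak 1253 bp from its start site, at chr10:127511808-127513714. The pileups there were 109 and 136 in normoxia, 208 and 193 at 1% O2 and 214 and 173 at <0.1% O2. Its pileup ranks were 75.0 and 71.8, then 79.8 and 80.7, then 83.4 and 82.3, so all hypoxic libraries lay above both normoxic ones and the rise of 9.46 at <0.1% O2 fell short of the 10 points. By fold rank it was called higher, from 14.2 and 11.6 to 26.9 and 23.0, a rise of 12.0.

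Complex II, succinate dehydrogenase, links the citric acid cycle to the chain, and all of its subunits are encoded in the nucleus. In pileup rank 3 of 4 were lower at <0.1% O2, against 34.2% of all genes. *Sdhd*, a membrane anchor, had pileup ranks of 68.5 and 76.6 in normoxia, 57.1 and 59.9 at 1% O2 and 41.1 and 50.3 at <0.1% O2, a change of -26.9 with no overlap at either step. *Sdha*, the flavoprotein that oxidises succinate, had 51.7 and 55.2, then 51.1 and 35.9, then 38.1 and 35.3, a change of -16.8. *Sdhc*, the other anchor, had 64.8 and 58.1, then 55.9 and 57.4, then 46.8 and 50.9, a change of -12.6 that was -9.29 without the first library at 21% O2. Within the whole peak list *Sdha* (-7.03) and *Sdhc* (-4.35) did not reach a call. In fold rank *Sdhc* had 85.3 and 68.1, then 60.3 and 60.1, then 28.1 and 49.3, one of the larger falls by that measure at -38.0. *Sdhb*, the iron-sulphur subunit, overlapped between normoxia and <0.1% O2, with 84.0 and 78.3, then 82.6 and 83.8, then 79.0 and 78.7. All 3 lower members, *Sdhc* among them, shared their promoter with another gene, and *Sdhb* did not. Those of *Sdhd* and *Sdha* lay against genes on the opposite strand, *Timm8b* and *Ccdc127*.

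Complex III, the cytochrome bc1 complex, passes electrons from ubiquinol to cytochrome c, and 5 of its 9 members were lower in pileup rank at <0.1% O2 (55.6% against 34.2% of all genes) and none higher (against 7.37%). *Uqcrh*, the hinge protein that holds cytochrome c1, had pileup ranks of 71.4 and 59.4 in normoxia, 49.2 and 49.9 at 1% O2 and 37.6 and 34.5 at <0.1% O2, a change of -29.4. Its pileups were 100 and 101, then 106 and 98, then 77 and 60, so at 1% O2 the summit was about as high as in normoxia, in libraries of greater coverage. *Uqcrb*, a subunit at the ubiquinone site, had pileup ranks of 61.6 and 64.9, then 45.9 and 46.0, then 28.1 and 39.8, a change of -29.3. Both fell at each step without overlap. *Cyc1*, cytochrome c1 itself, had 64.3 and 64.1, then 57.1 and 51.5, then 45.7 and 50.3, a change of -16.2, or -7.13 within the whole peak list, and it was lower by fold rank too (-17.7). *Uqcrq* had the highest mean rank of the complex and stayed between 96.2 and 98.1 in all libraries. *Uqcrc1*, one of the core proteins, had the lowest, with pileup ranks of 35.5 and 32.0, then 33.6 and 31.3, then 31.6 and 36.1, which overlapped, while its fold rank was higher by 11.8 points, or 9.39 without the first library at 21% O2.

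Complex IV, cytochrome c oxidase, hands the electrons to oxygen, and its nuclear subunits exist in more isoforms than those of the other complexes. Of 13 ranked members, 5 were lower in pileup rank at <0.1% O2 (38.5%, near the 34.2% of all genes) and 2 higher (15.4% against 7.37%). *Cox4i1*, the common isoform of the largest nuclear subunit, had pileup ranks of 76.0 and 71.3 in normoxia, 67.3 and 69.8 at 1% O2 and 52.7 and 57.0 at <0.1% O2, a change of -18.8. Its fold ranks of 72.3 and 73.5, then 58.7 and 77.7, then 65.7 and 75.7 overlapped. The fall of *Cox4i1* in pileup rank was -9.98 when ranked within the whole peak list and -7.30 with the trend against GC content subtracted, both short of a call. *Cox4i2*, the isoform known to rise in hypoxia, had no consensus peak within 2000 bp of its start sites at any level, so no exchange of isoforms could be read here.

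Of the isoform sets of complex IV, the *Cox7a* set was the one with pileup calls in opposite directions at <0.1% O2. *Cox7a1*, the form known from heart and muscle, had pileup ranks of 28.1 and 23.7 in normoxia, 47.9 and 43.2 at 1% O2 and 39.4 and 35.3 at <0.1% O2, a rise of 19.6 at 1% O2 and of 11.4 at <0.1% O2. The latter was 9.22 without the second library at 21% O2 and 9.38 without the first at <0.1% O2. *Cox7a2*, the form found in most tissues, had 61.0 and 72.1, then 57.5 and 59.2, then 47.9 and 43.8, a change of -20.7. *Cox7a2l*, a factor in the joining of complexes III and IV, had 89.3 and 85.4, then 75.7 and 84.1, then 72.2 and 69.7, a change of -16.4 that was -9.87 within the whole peak list. *Cox6a1* had 49.7 and 61.0, then 64.5 and 68.9, then 67.3 and 66.5, a rise of 11.5 that was 5.85 without the first library at 21% O2. It was the member called higher at <0.1% O2 by both measures, with fold ranks of 61.5 and 78.6, then 85.4 and 83.8, then 87.6 and 87.7, though without the first library at 21% O2 the rise in fold rank was 9.06. Its muscle isoform *Cox6a2* had no consensus peak.

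The remaining isoform sets of complex IV were not called by pileup rank at <0.1% O2. *Cox6b1* had pileup ranks of 36.4 and 41.7 in normoxia, 33.6 and 42.1 at 1% O2 and 40.5 and 45.2 at <0.1% O2, with overlap. *Cox6b2*, known from testis, had 65.3 and 57.7, then 63.9 and 65.2, then 59.2 and 54.4, also with overlap. *Cox7b2*, another testis form, had 25.7 and 24.6, then 24.9 and 24.2, then 17.0 and 16.7, a change of -8.25 without overlap at <0.1% O2. *Cox8a*, the common form of subunit VIII, had 85.0 and 82.9, then 84.8 and 84.5, then 89.7 and 90.4, a change of 6.09 and the highest mean rank of the complex. *Cox6c* had the lowest, with 19.6 and 24.6, then 14.9 and 13.5, then 7.0 and 12.3, a change of -12.4 that did not reach 10 points without the second library at 21% O2 or the first at <0.1% O2, within the whole peak list (-7.59) or with the GC trend subtracted (-5.83).

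Complex V, ATP synthase, had 10 of 17 ranked members lower in pileup rank at <0.1% O2 (58.8% against 34.2% of all genes) and 4 at 1% O2 (23.5% against 15.9%), with none higher at either level (against 7.37% and 10.4%). *Atp5a1*, the alpha subunit of the catalytic head, had pileups of 106 and 150 in normoxia, 119 and 92 at 1% O2 and 54 and 43 at <0.1% O2. Its pileup ranks were 73.9 and 75.6, then 54.8 and 47.0, then 21.4 and 19.6, a change of -54.3 and the deepest of all members, at a peak it shares with *Haus1* on the opposite strand. Its fold ranks fell from 58.1 and 57.6 over 53.6 and 37.4 to 18.7 and 21.4, and the call held by either measure with any library left out. *Atp5e*, the epsilon subunit of the central stalk, had pileup ranks of 77.0 and 85.6, then 74.4 and 83.8, then 52.7 and 58.6, a change of -25.7 that came after 1% O2. Its fold ranks of 88.6 and 89.9, then 98.0 and 99.4, then 88.5 and 82.7 were above normoxia at 1% O2 (9.44) and below it at <0.1% O2 (-3.66), both short of 10 points, with a change of -13.1 between the hypoxia levels. *Atp5b*, the beta subunit that pairs with *Atp5a1*, was not called, with pileup ranks from 78.4 to 87.6 and a change of -5.74.

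The extremes of level in complex V were *Atp5g1* and *Atp5l*. *Atp5g1*, 1 of 3 genes for the c subunit of the rotor, was between 99.3 and 99.8 in all libraries. Its paralogue *Atp5g3* was lower by 18.1 points and *Atp5g2* was not called by pileup rank but was higher by fold rank, by 10.3 points or 3.38 without the second library at <0.1% O2. *Atp5l*, the g subunit of the membrane part, had 54.4 and 47.1 in normoxia, 24.3 and 33.9 at 1% O2 and 28.9 and 34.5 at <0.1% O2, a change of -19.1 already seen at 1% O2 (-21.6), and of -9.0 when ranked within the whole peak list, short of a call. The pileups of *Atp5l* were 68 and 75, then 61 and 70, then 64 and 60. The summit height of *Atp5l* thus overlapped between 21% and 1% O2 and was slightly lower at <0.1% O2, while coverage was greater in all hypoxic libraries.

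**Figure D4:**
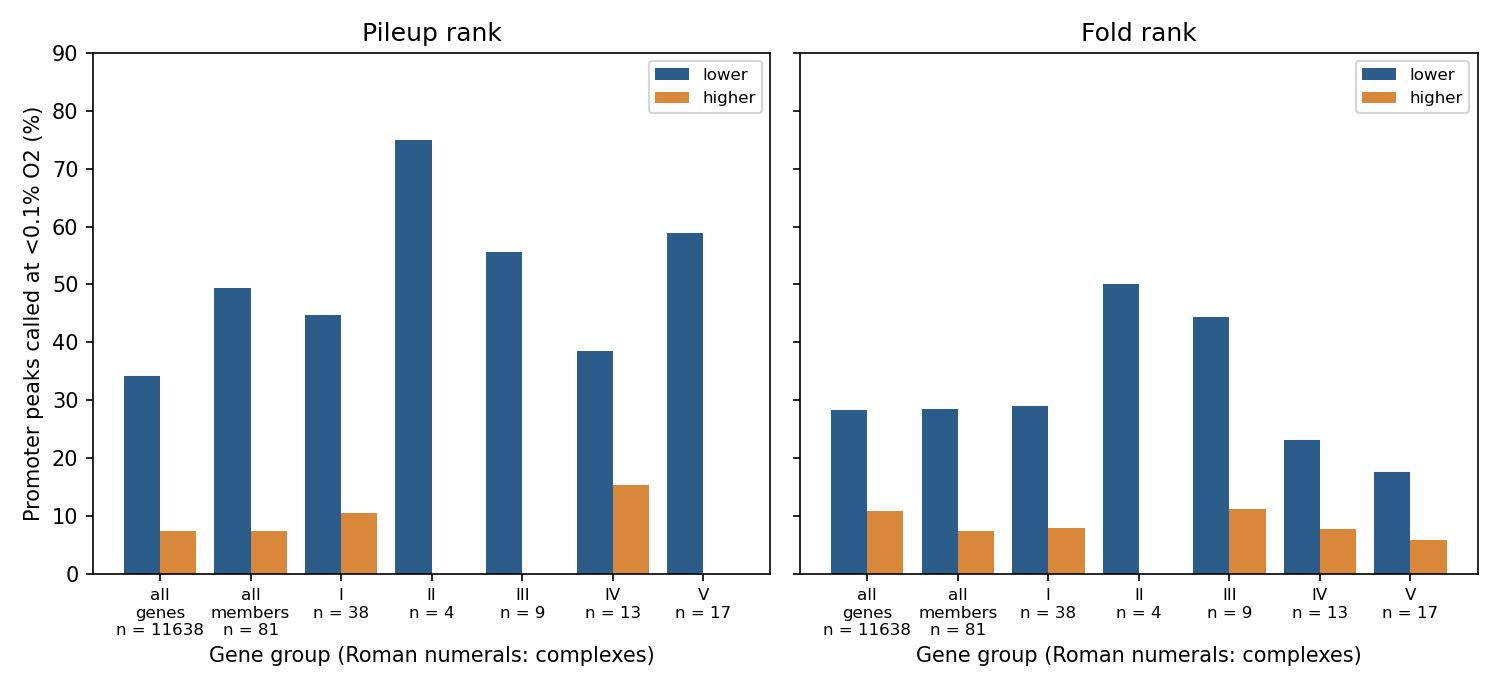
Share of promoter peaks called lower (blue) or higher (orange) at <0.1% O2 by pileup rank (left) and fold rank (right) for all genes, all members and each complex, in percent. Complexes I, II and III exceeded the background in the lower direction in both panels (44.7%, 75.0% and 55.6% by pileup, 28.9%, 50.0% and 44.4% by fold), complex I by little in the fold panel, while complexes IV and V did so by pileup (38.5% and 58.8%) and not by fold (23.1% and 17.6%). Complex II has 4 genes.

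Pileup ranks were followed over the 2 hypoxia levels, which share the normoxic libraries. *Cox5a* was lower at 1% O2 (-16.6) and short of the call at <0.1% O2 (-9.87). *Ndufb10* was higher at 1% O2 (18.5) and short of the call at <0.1% O2 (7.47). *Ndufs7* was higher at <0.1% O2 and just short of it at 1% O2 (9.91). Between the hypoxia levels themselves, 22 members (27.2%) were lower at <0.1% O2 than at 1% O2 by the same rule against 23.9% of all genes, and none was higher against 1.68%, so both shares were near the background. The 22 were 9 of complex I, 1 of complex II, 3 of complex III, 2 of complex IV and 7 of complex V.

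Members shared their promoter with a second gene more often than other genes did, and the falls gathered there. A promoter was counted as shared when its peak also lay within 2000 bp of a start site of another protein-coding gene. This was so in 30 of 81 members (37.0%), in each case with a gene on the opposite strand. Over all ranked genes 20.3% had such an opposite partner. Of these 30 members, 21 (70.0%) were lower in pileup rank at <0.1% O2 and none was higher, with a median change of -15.7. Among all 2650 ranked genes with a shared promoter, 36.1% were lower and the median change was -5.51. The 51 members with a promoter of their own had 19 lower (37.3%) against 33.7% of 8988 such genes, 6 higher (11.8%) against 7.93%, and a median change of -4.73 against -4.56. By fold rank, 12 of the 30 (40.0%) were lower against 24.8%, and 11 of the 51 (21.6%) against 29.3%. The surplus of lower members over the background was small once shared promoters were set aside. No test was run of this split, and which of both genes a change belongs to cannot be read from a common peak.

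**Figure D5:**
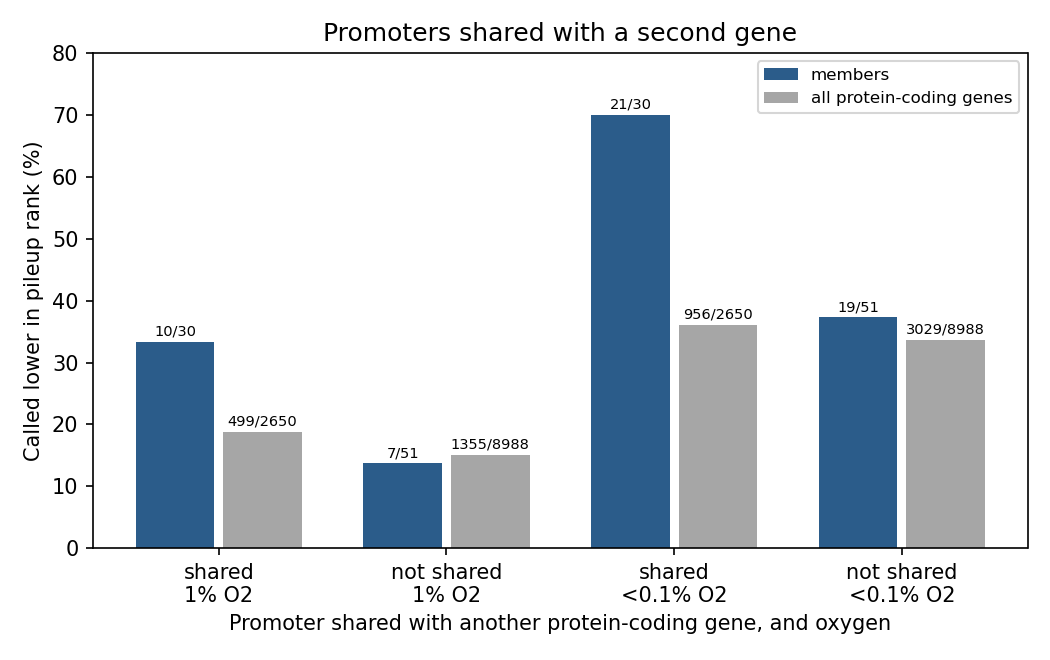
Share of genes called lower in pileup rank (percent) at 1% and <0.1% O2, in members (blue) and all protein-coding genes (grey). Shared promoters have their peak within 2000 bp of a start site of a second protein-coding gene, and the others are not shared. Numbers over the bars are genes called lower of genes with a ranked peak, and shared member promoters reached 70.0% at <0.1% O2.

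Partners at the lower shared promoters were of several kinds, and the examples were chosen after their values were seen. *Atp5a1*, *Uqcrh* and *Uqcrb*, 3 of the largest falls, lay against *Haus1*, *Lrrc41* and *Gm10767*. *Ndufb5* (-20.9) lay against *Mrpl47* and *Ndufs6* (-15.5) against *Mrpl36*, both mitochondrial ribosomal proteins. *Atp5j* (-19.6) shared its peak with *Gabpa*, the DNA-binding subunit of GABP. The peak of *Atp5j* and *Gabpa* had pileup ranks of 91.5 and 88.7 in normoxia, 81.9 and 83.2 at 1% O2 and 71.1 and 70.0 at <0.1% O2, a fall at each step without overlap.

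The level of a promoter also went along with the calls, and over all genes so did base composition. All ranked genes were split into 4 equal bins by mean pileup rank. In the highest bin, 6.15% of all genes and 1 of 10 members were lower at <0.1% O2. In the next bin down 12 of 22 members were lower against 31.6%, in the one after it 16 of 31 against 48.5%, and in the lowest 11 of 18 against 50.7%. Members had a median GC content of 57.6% at their peaks against 60.7% for all genes. In 4 bins of rising GC content, 27.2%, 32.6%, 33.3% and 43.8% of all genes were lower in pileup rank at <0.1% O2. The lower members were 15 of 29, 13 of 30, 9 of 19 and 3 of 3 in the same bins. With the trend of rank against GC content subtracted, the median change of members at <0.1% O2 was -6.52 against -0.54 for all genes. Then 36 members (44.4%) were lower against 24.6%, and 10 (12.3%) were higher against 13.9%.

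Motif matches were counted on both sides of the call. The ETS core was in 10 of 32 windows of members lower in pileup rank at <0.1% O2 (31.2%) and in 6 of 35 of the other ranked members (17.1%), the NRF1 core in 5 (15.6%) and 4 (11.4%), and the YY1 core in 6 (18.8%) and 4 (11.4%). The HIF core was in 7 (21.9%) and 10 (28.6%). These counts are small and carry no test.

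Assembly factors, which build the complexes without being part of them, and regulators were followed as lists of neighbours. Of 51 assembly factors, 19 were lower in pileup rank at <0.1% O2 (37.3%, close to the background of 34.2%) and 2 higher (3.92% against 7.37%). Their median change was -7.66 against -4.80 for all genes. *Cox16*, a factor of complex IV assembly, had pileup ranks of 35.5 and 39.1 in normoxia, 32.4 and 29.2 at 1% O2 and 11.8 and 4.6 at <0.1% O2. *Ndufaf6*, a factor of complex I assembly, was the highest riser with 37.3 and 51.3, then 71.3 and 64.1, then 60.0 and 61.9. Of 15 carriers and regulators, 4 were lower (26.7%, under the background of 34.2%) and 2 higher (13.3% against 7.37%). *Gabpb1*, the partner subunit of GABP, had 64.3 and 61.5, then 23.0 and 18.1, then 9.7 and 7.7, a change of -54.2 close to that of *Atp5a1*. *Gabpa*, by the peak it shares with *Atp5j*, *Nrf1* (-14.9) and *Yy1* (-14.6) were also lower by pileup rank. By fold rank at <0.1% O2, 4 of the 15 were lower (26.7% against 28.2% of all genes) and 2 higher (13.3% against 10.8%), both near the background. *Gabpb1* (-30.0) and *Nrf1* (-28.0) were among the lower, *Esrra* (18.1) and *Pprc1* (13.5), both activators of these genes, were higher, and *Gabpa* (-11.1) and *Yy1* (-6.94) were not called. *Nrf1* had 58.8 and 55.2, then 56.7 and 49.5, then 41.1 and 43.1. *Pdk1*, a HIF target that keeps pyruvate out of the citric acid cycle, rose from 81.8 and 84.8 over 96.0 and 94.2 to 97.2 and 97.2. *Polrmt*, the mitochondrial RNA polymerase, was the other riser (12.2).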

How the data were processed

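ATACseq was done on GL261 cells in 6 libraries, 2 per oxygen level. After trimming, the authors aligned reads to mm10 with Bowtie2 2.2.5, and called peaks with MACS2 2.1.1.2, as the methods and the submitters' processing notes state, and deposited 1 list per library. The deposited lists give each peak's fold (a ratio of pileup to local background), −log10 p-value and −log10 q-value. The authors' fold and p-value fixed the whole-number summit pileup for 100% of peaks (error in −log10 p within 0.002), and the smallest background was read as genome coverage. Replicate peaks sharing over 200 bp were merged over conditions into 41308 consensus peaks, 28432 of them in all 6 libraries. A gene with several took the one with the highest mean pileup rank.

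Named genes are the 5 largest falls and rises at <0.1% O2 by each rank, the extremes of each complex, *Sdha* to *Sdhd*, *Cyc1* and isoform sets, and others were chosen after their values were seen. Members, lists and motifs were chosen with earlier results of these data known. Alternatives covered the value ranked, the peaks ranked, the size of change, GC content, overlap, peak threshold, window, peak per gene, shared promoters, *Atp5s*, a replicate block and each library left out. Read counts were not used here, and some results are not reported here. Scripts ran in Python 3.11.15 with pandas 2.3.3 and numpy 2.4.6, pysam 0.24.0 with samtools 1.23.1, and statsmodels 0.14.6.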

Additional observations from a re-analysis of the deposited data

Results flagged for a closer look

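A few members moved one way at 1% O2 and the opposite way at <0.1% O2, with both libraries of each level beyond both normoxic ones. Both levels were set against the same normoxic libraries, and the difference between them was not tested. By fold rank 3 of 81 members moved in opposite directions, against 4.24% of all genes. *Atp5e*, the epsilon subunit of ATP synthase, changed by 9.44 percentile points at 1% O2 and by -3.66 at <0.1% O2. *Atp5g1*, a c subunit gene of its rotor, changed by -2.97 and 2.22.

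By pileup rank there were 5 of 81 members, against 5.46% of all genes, so the counts by both ranks were near the background. Each of the 5 was above normoxia at 1% O2 and below it at <0.1% O2. *Ndufa8*, an accessory subunit of complex I, changed by 6.17 at 1% O2 and by -10.7 at <0.1% O2, which alone among these 5 reached the 10 points of a call. Without the first library at <0.1% O2 the latter change was -9.02, short of a call. *Ndufa3* changed by 7.42 and -2.12, *Ndufb6* by 3.10 and -3.85, *Ndufb8* by 1.42 and -4.27, all 3 in the membrane arm of complex I. *Atp5o*, which joins the head of ATP synthase to its stalk, changed by 4.80 and -3.67.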

How the results depend on the processing

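Peak lists hold pileups and no read totals, and with 2 libraries per level no promoter has a p-value. Of 252 recomputed counts and medians over 19 results, 194 stayed within the spread or within 1.5 times the main value, and of 415 values for single genes, 359 did, and no called change turned its direction, while changes that were not called did turn for *Atp5g1*, *Cox6b2*, *Ndufs6*, *Sdhb* and *Uqcrc1*. The percent of all genes given in parentheses follows the same alternative, and where a value moved the cause was not tested, except that a larger or smaller required change and a shorter member list act by their construction.

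Ranked within the whole peak list, lower and higher members by pileup rank were 15 (17.4%) and 12 (11.9%) at <0.1% O2 and 3 (3.22%) and 11 (18.6%) at 1% O2, by fold rank 11 (18.2%) and 10 (14.8%) at <0.1% O2 and 5 (6.0%) and 15 (17.9%) at 1% O2, and 10 (11.2%) stepped down by pileup. The median changes were then -2.88 (pileup) and 0.885 (fold) at <0.1% O2, and the pileup median at 1% O2 turned to 2.08. On the log2 scale of scaled pileup, 26 (21.6%) were lower and 0 (2.94%) higher at <0.1% O2, and 6 (5.81%) and 2 (3.27%) at 1% O2. With the -log10 q-value in place of the fold, 39 (34.4%) were lower at <0.1% O2, 18 (18.6%) stepped down, and the median was -9.43. A required change of 20 points left 13 lower (16.0% against 14.3% of all genes) and 0 higher (1.49%) by pileup at <0.1% O2, so most of the surplus was gone, and 2 (3.15%) and 1 (1.69%) at 1% O2, and by fold 8 (13.4%) and 1 (2.84%), then 2 (4.10%) and 3 (2.98%). A change of 5 points gave 31 lower (38.3% against 27.1%) and 17 higher (21.0% against 20.5%) by pileup at 1% O2, 12 higher (14.8% against 14.1%) at <0.1% O2, and 16 (19.8% against 16.9%) and 10 (12.3% against 16.6%) higher by fold at 1% and <0.1% O2. With the GC trend subtracted, 10 members (13.9%) were higher by pileup at <0.1% O2, and the medians were -6.52 at <0.1% O2, -3.67 at 1% O2 and -2.07 between the hypoxia levels by pileup, and -0.407 by fold at <0.1% O2. Without shared promoters, 19 (34.2%) and 7 (15.9%) of 51 were lower by pileup at <0.1% and 1% O2, 11 (28.2%) and 5 (16.2%) by fold, 13 (22.5%) stepped down by pileup and 3 (8.63%) by fold, with the shares over all genes as before, and the medians were -4.73 and -1.20 by pileup and 0.223 by fold at <0.1% O2. Peaks were then present for 51, 51 and 52 of 57 genes.

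When 1 library at a time was omitted, the lower members by pileup at <0.1% O2 numbered 37 to 40 and those higher 6 to 8, with medians of -9.89 to -8.79. At 1% O2 they numbered 18 to 20 and 5 to 9, with medians of -3.11 to -1.58. By fold, 18 to 26 were lower and 7 to 12 higher at <0.1% O2, with medians of -4.62 to -1.17, and 14 to 17 and 10 to 20 at 1% O2, with medians of -0.79 to 1.28. Members that stepped down numbered 26 to 35 by pileup and 8 to 13 by fold, since fewer libraries have to be in order. Medians between the hypoxia levels were -5.89 to -5.26 by pileup and -5.70 to -2.66 by fold. Peaks were present for 81 to 82 members at 21% and 1% O2 and for 82 at <0.1% O2. Calls that held without any library numbered 33 of 40 lower and 3 of 6 higher by pileup at <0.1% O2, and 11 of 23 and 2 of 6 by fold. Shares of all genes are not set beside the counts with a library omitted, so they do not compare members with other promoters.

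Replicate numbers did not pair the libraries. Deviations of same-numbered libraries from their group means correlated at -0.003, -0.009 and 0.007 over 28432 peaks. With the replicate block, that is with ranks compared within a number, 40 members were lower and 6 higher by pileup at <0.1% O2 and 17 and 6 at 1% O2, 24 and 6 by fold at <0.1% O2 and 13 and 11 at 1% O2, and 32 and 11 stepped down by pileup and fold. No count moved by over 1.5 times. The block is a looser rule by construction, so every count could only stay or rise, for all genes too. Shares of all genes are not set beside these counts, so they do not compare members with other promoters.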

Other observations

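Genes whose promoter held both an NRF1 and an ETS match numbered 5 of 69 members (7.25%) and 0.6% of all genes in the RefSeq table. They were *Atp5j*, *Atp5k* and *Atp5l* of ATP synthase, *Uqcr11* of complex III and *Cox6a1* of complex IV. The first 4 were lower in pileup rank at <0.1% O2 and *Cox6a1* was higher, and these counts are too small to rank one direction over the other.

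Without a minimum size of change, 52 of 81 members (64.2%) had both libraries at <0.1% O2 below both normoxic libraries in pileup rank, against 55.3% of all genes, and 16 (19.8%) had both above, against 21.7%. At 1% O2 the counts were 37 (45.7%) below against 36.3%, and 23 (28.4%) above against 31.7%.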
